A study of Salmo salar with 60 samples.

Results

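Late exposure to dietary soybean meal was compared with early exposure in the distal intestine of Atlantic salmon. The late fish had been fed soybean meal for 5 or 7 days and the early fish for 1 or 2 days, as given in the sample titles. Of 60 arrays, 40 entered the comparison, 20 late and 20 early, with 10 fish of each of 2 tanks on each side. Each array carried Cy5-labelled RNA of 1 fish and a Cy3-labelled common reference, a pool of 18 fish with 3 from each sampling day. All compared fish were of the Sunndalsøra breed, weighed 500 to 600 g at the start, had first been adapted to a fishmeal diet and then received 200 g of soybean meal per kg of feed. Fish without gut content were not sampled, per the labels' protocols. The 9 fish labelled day 0, on the fishmeal diet, and the 10 fish of day 3 are given only beside single probes, and 1 array titled day 1 and tank 0 was left out because the design has no such tank.

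Soybean meal is a plant protein source that causes enteritis of the distal intestine in salmonids. The condition is known for shortened mucosal folds, loss of the absorptive vacuoles of enterocytes, and a lamina propria widened by inflammatory cells, and it develops over days to weeks of feeding. The distal intestine takes up intact macromolecules by endocytosis and holds many immune cells. The comparison asks whether its transcript levels after 5 to 7 days differed from those after 1 to 2 days. The files name each probe by its array position alone, and the gene table used here held 0 of these names, so genes, gene groups, cell types and probe sequences are not analysed here, and the tissue label could not be checked against markers. In whole tissue, fewer cells of a type and less RNA per cell cannot be told apart.

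Array signals overlapped between the stages. The median background-corrected Cy5 signal of an array was 78.7 ± 13.6 in late fish and 72.6 ± 13.2 in early fish (SD, n = 20 each). It ranged from 55.5 to 111 in late fish and from 58.5 to 100.5 in early fish. By day, it averaged 65.25 ± 5.52 on day 1 and 79.85 ± 14.8 on day 2. On days 5 and 7 it averaged 80.7 ± 17.1 and 76.6 ± 9.41 (SD, n = 10 each), so day 1 had the lowest mean. The days were not tested on this measure. The median Cy3 signal, from the common reference, was 70.7 ± 10.5 on late arrays and 74.1 ± 10.7 on early arrays. Neither difference was larger than shuffled stage labels commonly gave (permutation p = 0.160 and 0.319, two-sided, stage labels shuffled within tanks, adjusted p = 0.272 and 0.319 over 4 array measures). Within tank 2 alone, the median Cy3 signal was 68.2 ± 10.9 on late arrays and 78.8 ± 10.7 on early arrays (n = 10 each, permutation p = 0.0438, adjusted p = 0.175 over 8 tests). Within tank 1 it was 73.2 ± 9.92 on late arrays and 69.4 ± 8.89 on early arrays. The arrays lay on 15 slides, of which 10 held both stages, 2 held late fish without early fish and 3 held early fish without late fish.

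No probe separated late from early fish. With limma, 0 of 43627 probes (0%) reached an adjusted p under 0.05 (Benjamini-Hochberg), and the smallest adjusted p was 1.00. An unadjusted p under 0.05 was reached by 1345 probes, 3.08% of those tested, of which 669 were higher and 676 lower in late fish. Unchanged, independent probes would give a mean of 2181. The exact Wilcoxon rank sum test likewise called 0 probes after adjustment and counted 1345 at an unadjusted p under 0.05. There was no probe (0%) for which the range of the 20 late fish lay wholly above or below that of the 20 early fish. With slide as a fixed block in the limma fit, 0 probes passed and 1903 had an unadjusted p under 0.05. With each array centred on its median in place of loess normalization, which follows the intensity of the probe, 0 probes passed, and 36.9% of the 1137 probes at an unadjusted p under 0.05 were higher in late fish, against 49.7% of the 1345. The fit took every fish as a separate sample, while all fish of a stage came from the same 2 tanks.

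**Figure D1:**
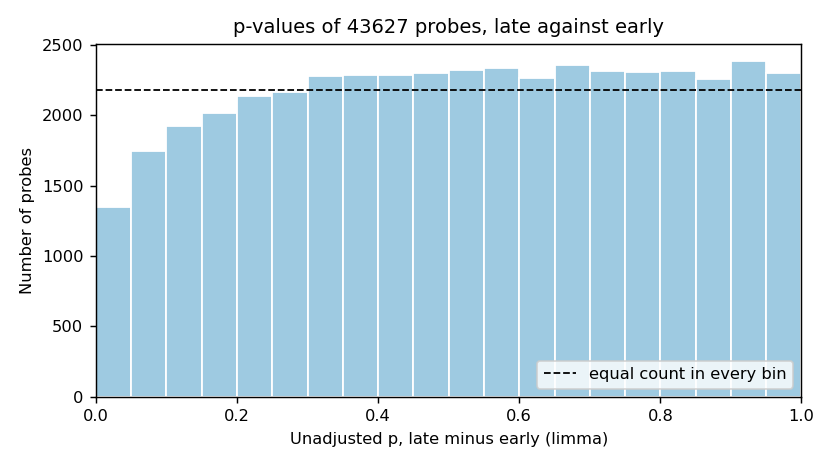
Histogram of the unadjusted limma p-values of 43627 probes for late minus early fish, in bins of 0.05, with the number of probes on the vertical axis. The lowest bin holds 1345 probes, below the dashed line at 2181, the count that an even distribution would put in every bin.

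Small p-values were rarer among bright probes than among the others. Bright probes were defined by a mean intensity of both channels that corresponds to a signal of at least 200, which held for 16165 probes. Of these, 305 (1.89%) had an unadjusted p under 0.05, 132 higher and 173 lower in late fish. Of the 27462 other probes, 1040 (3.79%) did, 537 higher and 503 lower. When probes were divided by intensity into 10 bins of equal size, the share was 4.38% in the dimmest bin and 1.83% in the brightest.

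The 40 arrays bounded the late minus early difference of the log ratio closely for most bright probes. The median absolute difference was 0.07 on the log2 scale over all probes and 0.07 over the bright ones. The median difference over all probes was 0.00. For 14549 of the 16165 bright probes (90.0%), the 95% confidence interval of the difference lay within 1.5-fold in either direction, and for 98.5% it lay within 2-fold. The median half-width of this interval was 0.23 log2 units for bright probes and 0.19 for the others. An offset of 50 had been added to both channels. For 44.0% of probes, all of them dim, a complete loss of signal then changes the ratio less than 2-fold, so an interval within a given fold of the ratio does not bound the RNA level to that fold. Without the offset, the interval lay within 1.5-fold for 85.7% of bright probes.

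**Figure D2:**
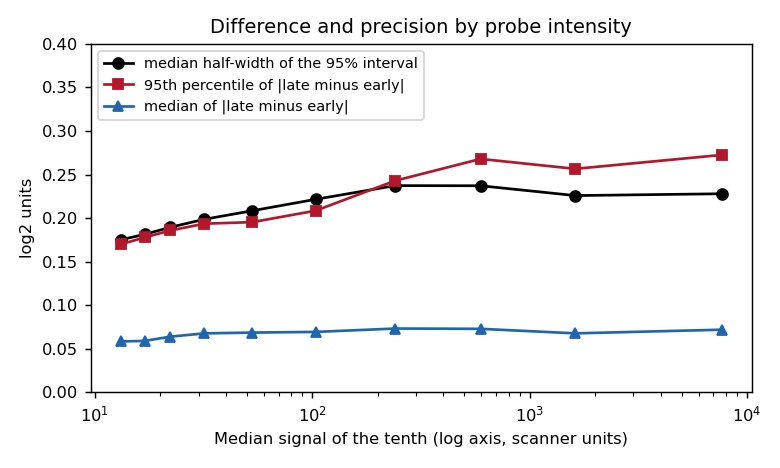
Late minus early differences and their precision for probes in 10 bins of intensity. The horizontal axis is the median signal of each bin in scanner units on a log scale, and the vertical axis is in log2 units. Triangles mark the median absolute difference, squares its 95th percentile and circles the median half-width of the 95% confidence interval. The median absolute difference stays between 0.06 and 0.07 in all 10 bins, while the median half-width is 0.17 in the dimmest bin and 0.24 near a signal of 241. An offset of 50 was added to both channels, so the narrower intervals of dim probes do not bound their RNA level more closely.

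Large estimates were found among probes that varied strongly between fish. The estimated difference exceeded 1.5-fold for 51 probes, of which 47 were bright, 10 were higher and 41 lower in late fish. These 51 had a median standard deviation between fish of the same stage of 1.77 log2 units, against 0.32 over all probes. An unadjusted limma p under 0.05 was reached by 6 of the 51 (11.8%), against 3.08% of all probes. The 51 were picked by the size of the same difference that the p tests, so the higher share is no separate finding. The highest estimate was 0.99 with a standard error of 0.54 (unadjusted limma p = 0.0737). The lowest was -1.11 with a standard error of 0.44 (unadjusted limma p = 0.0150), and it was the one estimate beyond 2-fold.

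The stages accounted for little of the variation across the arrays. The share of the sum of squares over all 43627 probes that lay between late and early was 2.01%, below the 2.54% that was the mean of 100000 shuffles of the stage labels within tanks (permutation p = 0.658). Log ratios of 2 late fish correlated at 0.13 on average over all probes (190 pairs, -0.38 to 0.61). Those of 2 early fish correlated at 0.19 (190 pairs, -0.40 to 0.57), and those of a late and an early fish at 0.17 (400 pairs, -0.45 to 0.60). The average for fish of different stages thus lay between the averages within the stages. Correlations below -0.3 occurred in 9 of the 190 late pairs (4.74%), 13 of the 190 early pairs (6.84%) and 19 of the 400 pairs of a late and an early fish (4.75%). The direction of the ratio was taken from the labels, which give Cy5 for the fish on every array.

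Late fish did not differ from each other measurably more than early fish did. The distance of an array from the mean of its stage, the square root of the summed squared differences over all probes, averaged 81.6 ± 14.0 log2 units in late fish and 77.5 ± 18.8 in early fish (SD, n = 20 each). Differences as large as this 4.06 were common under shuffled stage labels (permutation p = 0.508, two-sided). The median distance was 78.0 in late and 72.1 in early fish. Without 4 arrays named below, which were chosen by their values, the difference of the means was 6.46 (permutation p = 0.129). For the median probe the standard deviation between fish was 0.32 in the late and 0.31 in the early stage, and 53.4% of probes had the higher value in late fish.

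Scores on the leading axes of variation overlapped as well. Among the 40 arrays, 30.3% of the variation fell on the first principal component. Its scores had a lowest, median and highest value of -49.2, -22.1 and 93.5 in late fish and of -40.3, -25.1 and 116 in early fish. The late minus early difference of the mean score was 10.96 (permutation p = 0.447, adjusted p = 0.671 over 3 components). By day, fish of day 1 had a mean score of -7.18 ± 39.1 and those of day 2 of -3.77 ± 47.8, while fish of day 5 had 19.8 ± 41.0 and those of day 7 had -8.89 ± 54.6 (SD, n = 10 each). The highest scores were 93.3, 116, 77.9 and 93.5 on days 1, 2, 5 and 7. The medians of these days were -23.6, -29.1, 25.6 and -29.3, so high scores were more common on day 5. On days 1 and 2 the highest score was that of a single fish, with the next at 23.2 and 22.7. The days were not tested against each other on this score. On the second and the third component, which held 6.22% and 5.06%, late minus early was -1.23 and -4.68 (permutation p = 0.853 and 0.439).

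**Figure D3:**
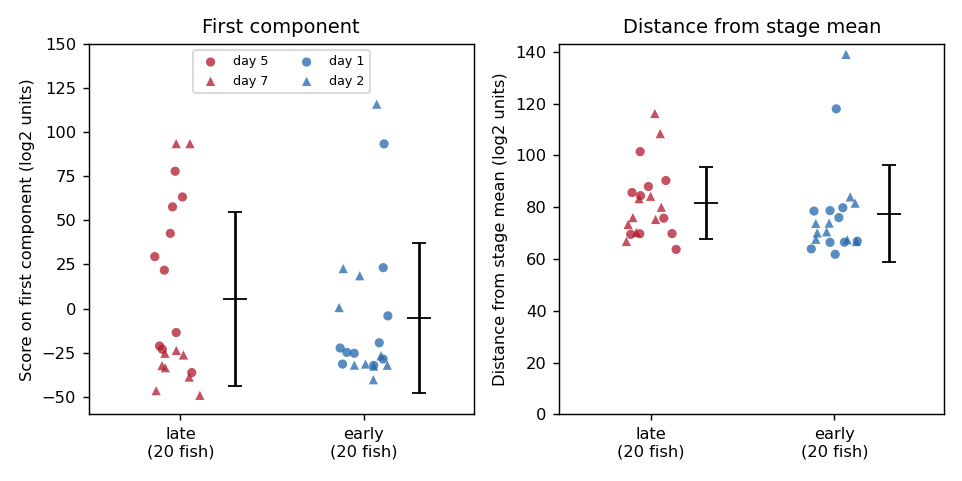
Score on the first principal component (left) and distance from the stage mean (right), both in log2 units, for 20 late and 20 early fish. The distance is the square root of the summed squared differences over all probes. Each point is a fish, its shape gives the day, and the bar to the right of each stage gives the mean and SD. Both stages hold a group of low scores and a few fish with scores above 90. Fish of day 5 have scores from -36.3 to 77.9 with a median of 25.6. The distances overlap, with the highest value, 139, in an early fish.

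The comparison was then made in each tank separately, with 10 late and 10 early fish. In tank 1 alone, limma called 0 probes, and 1280 (2.93%) had an unadjusted p under 0.05, 691 of them higher and 589 lower in late fish. In tank 2 alone it called 0 probes, with a smallest adjusted p of 0.0735, and 1697 (3.89%) had an unadjusted p under 0.05, 780 higher and 917 lower. The 2 lists shared 13 probes with the same direction, 1.02% of the tank 1 list and 0.766% of the tank 2 list, and 26 probes with opposite directions. Over all probes, in either direction, the tank 2 list held 3.89% and the tank 1 list 2.93%. The overlap was not tested, so the 2 counts are not read as agreement or opposition of the tanks. The late minus early differences of the 2 tanks, which share no fish, correlated across all probes at 0.06, with the same sign for 51.0% of probes. Across bright probes the correlation was 0.16 and the same-sign share 54.2%. The sign of the correlation across all probes depended on the processing, at -0.02 without the offset and -0.02 in the authors' value table. It was -0.04 without 4 arrays set apart in earlier work on these data for high scores on the first component. These were replicate 7 of day 1, replicate 10 of day 2 and replicates 2 and 7 of day 7. Without them the same-sign share was 47.9%. Probes are not independent replicates, and these values are descriptions. The test of a difference between the tanks called 0 probes with limma (smallest adjusted p 1.00), and 1638 probes, 3.75% of those tested, had an unadjusted p under 0.05.

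**Figure D4:**
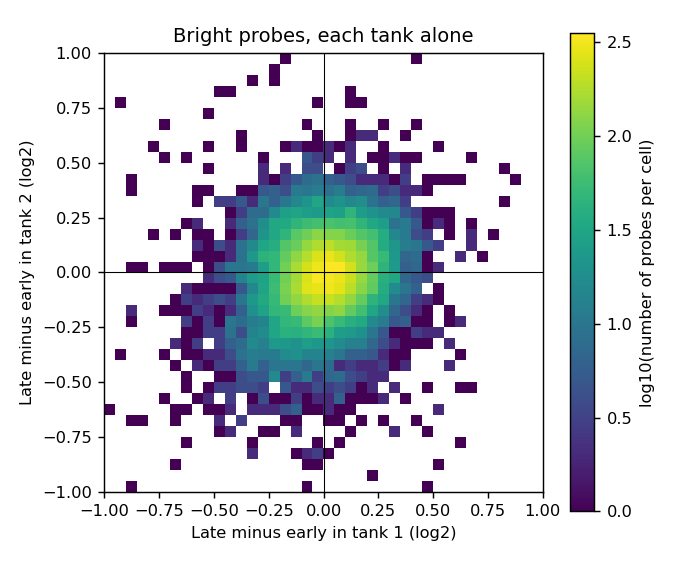
Late minus early difference in tank 1 (horizontal) against that in tank 2 (vertical), in log2 units, for 16127 of the 16165 bright probes. The other 38 lie outside the axes. The colour gives log10 of the number of probes in each cell of 0.05 by 0.05. The cloud is centred near 0 on both axes with little tilt (r = 0.16 across bright probes).

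The days within each stage were compared to see whether pooling joined like samples. In a limma fit of the 4 day means to the 40 arrays, day 7 against day 5 gave 1 probe after adjustment (0.00229%) and 3269 (7.49%) at an unadjusted p under 0.05, 1558 higher and 1711 lower on day 7. Day 2 against day 1 gave 0 probes after adjustment and 1785 (4.09%) at an unadjusted p under 0.05, 902 higher and 883 lower on day 2. Whether these 2 contrasts differ from each other was not tested. Each late day was also set against each early day in the same fit, and 0 probes passed in any of the 4 comparisons. At an unadjusted p under 0.05, day 5 had 2522 probes (5.78%) against day 1 and 2711 (6.21%) against day 2, and day 7 had 1314 (3.01%) against day 1 and 1370 (3.14%) against day 2. Comparisons that use the same day share its fish. Of 43627 probes, day 5 against both early days pooled gave 0 after adjustment with limma (smallest adjusted p 0.550) and 3374 at an unadjusted p under 0.05. Day 7 against both gave 0 and 1205. Unchanged, independent probes would give a mean of 2181 at that threshold.

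Day 5 and day 7, each set against a different early day, had opposite signs at more probes than the same sign. The differences of day 5 minus day 1 and of day 7 minus day 2 correlated across all probes at -0.19, with the same sign for 45.6% of probes. Those of day 5 minus day 2 and of day 7 minus day 1 correlated at -0.15, with the same sign for 45.5%. Across bright probes the correlations were -0.28 and -0.22, and the same-sign shares 41.1% and 41.1%. Across all probes, the 2 correlations were -0.04 and -0.03 both without the offset and in the authors' value table, and -0.40 and -0.40 without the 4 arrays apart. The same-sign shares lay between 40.4% and 46.2% in these settings. Log ratios of a day 7 and a day 5 fish correlated at 0.11 on average (100 pairs), against 0.20 for a day 2 and a day 1 fish (100 pairs). Pairs of day 5 fish also averaged 0.11 (45 pairs), so the value across the late days was close to that among day 5 fish alone. Within days 7, 1 and 2 the averages were 0.20, 0.20 and 0.16 (45 pairs each). The mean first component score was 19.8 on day 5, above those of the early days. On day 7 it was -8.89 ± 54.6, close to the -7.18 ± 39.1 of day 1 (SD, n = 10 each). As between the tanks, these correlations and shares are descriptions, because probes are not independent replicates. The part of the first component in the same-sign shares was not tested.

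The probe called between the late days was C004R149, which was bright. It had a log2(Cy5/Cy3) with a lowest, median and highest value of -0.93, -0.38 and -0.07 in the 10 fish of day 7 and of -0.12, 0.43 and 1.41 in the 10 fish of day 5. The ranges overlapped by 1 fish on either side, as 9 fish of day 7 lay below every fish of day 5. The difference of -0.90 (1.87-fold lower on day 7) had a standard error of 0.15 and an adjusted p of 0.0179 with limma, and was -0.88 in tank 1 and -0.93 in tank 2. Its mean was 0.06 ± 0.25 on day 1, -0.03 ± 0.38 on day 2 and -0.02 ± 0.55 on day 3 (SD, n = 10 each), and 0.03 ± 0.39 on day 0 (n = 9). Days 5 and 7 thus lay on opposite sides of the other days, and its pooled late minus early difference was 0.04 with a standard error of 0.14 (unadjusted limma p = 0.770). The call was lost when the spread was estimated from all 59 arrays with a day and tank (adjusted p = 0.0829), in the authors' value table (0.0585) and with median centring (0.232). It was also lost without replicate 3, 7 or 8 of day 5 or replicate 2 or 9 of day 7 (0.0536 to 0.0739). In all settings that lost the call, the difference stayed between -0.91 and -0.80.

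The number of probes called between the late days depended on few arrays. In earlier work on these data, the 4 arrays named above stood apart on the first component. Without these, limma called 3223 of 43627 probes for day 7 against day 5. All day 5 fish, with scores up to 77.9, stayed in that fit, while the day 7 fish with the highest scores (both above 90) were left out, so the count compares samples chosen by their values and is no separate finding. For late against early, the same omission left 0 of 43627 probes after adjustment with limma (smallest adjusted p 0.993). At an unadjusted p under 0.05 there were 1827, where unchanged, independent probes would give a mean of 2181.

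As no probe passed for late against early, 4 bright probes are given as examples: the 2 in each direction with the smallest unadjusted p among those whose difference had the same sign in both tanks and in all 4 pairs of a late and an early day. Their late and early values chose them and are a description. The intervals given for them are unadjusted 95% intervals from limma. The choice favoured intervals that leave out 0 and fixed the agreeing signs of the tanks. For C050R056, the lowest, median and highest log2(Cy5/Cy3) was -0.64, -0.13 and 0.37 in late fish and -0.80, -0.26 and -0.06 in early fish. The ranges overlapped, with 14 of 20 late fish above the early median. The late minus early difference of the loess-normalized log ratios was 0.26. Its mean Cy5 signal was 56947 ± 10482 in late and 48272 ± 10455 in early fish (SD, n = 20 each). This spot was near the top of the scale, with a highest Cy5 signal of 65346 where the highest of any probe was 65437. It carried flag code 3, in the Cy5 or the Cy3 channel, on 12 late and 7 early arrays. The code was deposited without a key, and Cy5 values that carried it in the Cy5 channel had a median of 40855. A signal at the top of the scale may be cut off there, so no fold or interval is given for this probe.

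C112R128 had a lowest, median and highest value of -0.37, 0.13 and 0.46 in late fish and of -0.64, -0.16 and 0.37 in early fish, and 15 of 20 late fish lay above the early median. The difference of 0.26 (interval 0.08 to 0.43) was 0.47 in tank 1 and 0.04 in tank 2. By day, C112R128 averaged 0.20 ± 0.19 on day 5 but -0.02 ± 0.30 on day 7 (SD, n = 10 each). On days 1 and 2 it averaged -0.11 ± 0.25 and -0.22 ± 0.30 (n = 10 each).

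The lower pair overlapped between stages in the same way. C013R124 had a lowest, median and highest value of -0.58, 0.02 and 0.83 in late fish and of -0.52, 0.46 and 1.68 in early fish, and 17 of 20 late fish lay below the early median. Its difference in log2 ratio was -0.45 (1.37-fold lower), with an interval of -0.72 to -0.18, and it was -0.51 in tank 1 and -0.39 in tank 2. The mean Cy5 signal of C013R124 before normalization was 270 ± 99.3 in late and 293 ± 208 in early fish (SD, n = 20 each). It carried flag code 3 in the Cy5 or the Cy3 channel on 2 early arrays, and the count does not tell which channel. Its highest Cy5 signal was 812.5. C097R118 had values of -1.09, -0.26 and 0.27 in late fish and of -0.44, 0.03 and 0.27 in early fish, and 16 of 20 late fish lay below the early median. The difference was -0.33 (interval -0.52 to -0.13), with -0.10 in tank 1 and -0.56 in tank 2. Late fish spread more than early fish at this probe, with standard deviations of 0.40 and 0.18. It carried flag code 3, in the Cy5 or the Cy3 channel, on 1 late and 1 early array. The limma adjusted p for late minus early was 1.00 for each of the 4 probes.

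The fish of days 0 and 3 did not enter the choice of these probes. C050R056 averaged -0.32 ± 0.31 on day 0 (SD, n = 9) and -0.30 ± 0.25 on day 3 (n = 10), near its early mean of -0.36 ± 0.22 (n = 20). Without replicate 6 of day 0, at -0.92, its day 0 mean was -0.24 ± 0.23 (n = 8). That lay about midway between its early mean and its late mean of -0.10. C112R128 averaged 0.01 ± 0.25 on day 0 and -0.06 ± 0.22 on day 3, both between its late mean of 0.09 ± 0.27 and its early mean of -0.17 ± 0.28. C013R124 averaged 0.02 ± 0.39 on day 0, at its late mean of 0.00 ± 0.34, and 0.28 ± 0.42 on day 3, between that and its early mean of 0.45 ± 0.51. C097R118 averaged -0.08 ± 0.17 on day 0, near its early mean of -0.01 ± 0.18, and -0.25 ± 0.52 on day 3, nearer its late mean of -0.34 ± 0.40. Without replicate 5 of day 3, at -1.51, the day 3 mean was -0.10 ± 0.28 (n = 9), nearer the early mean. The day 0 fish, which had received no soybean meal, thus lay nearer the early mean at C050R056 and C097R118 and nearer the late mean at C112R128 and C013R124. No probe of the 4 was tested on these days.

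**Figure D5:**
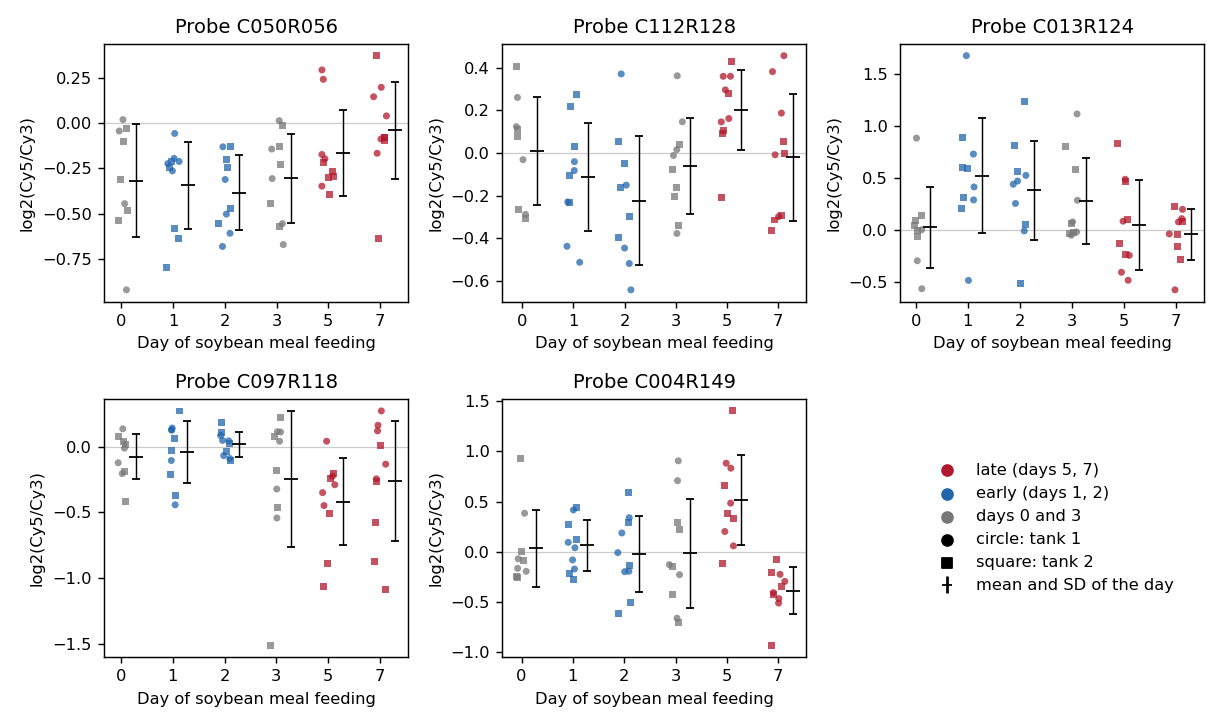
Log2(Cy5/Cy3) of 5 probes in each fish, by day of soybean meal feeding on the horizontal axis (10 fish a day, 9 on day 0). Points are fish, coloured by stage with circles for tank 1 and squares for tank 2, and bars give the mean and SD of the day. At the 4 probes chosen for a small p the late and early fish overlap, and at C004R149 the day 7 fish (mean -0.39) lie below the day 5 fish (mean 0.51).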

How the data were processed

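Per the labels, 2-colour arrays compared the Cy5-labelled RNA of each fish with a Cy3-labelled reference pool, with no dye swap. Stages, days and tanks came from the sample titles and replicates are separate fish. The members and tests were chosen with earlier results of these data known.

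The authors deposited intensity values, as background-corrected median spot signals of both channels, per the file headers (method not given in the sources used here). Of 45220 spots, 1531 that were absent from the authors' value table and 62 probes with flag code 1 were left out, and 43627 were tested. Spots with other flag codes were kept. The authors also deposited log2 values for the same arrays, centred on each probe's median. Each of 60 columns correlated best with its own array (0.949 to 0.997 over 14678 probes above 100 in both channels). Their normalization within arrays is unknown.

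Signals below 0 were set to 0, 50 was added, and log2(Cy5/Cy3) was loess-normalized within arrays. Late minus early was fitted to 40 arrays without covariates (limma 3.58.1, R 4.3.3), with p-values adjusted by Benjamini-Hochberg over all probes. Array measures were tested by 100000 shuffles of stage labels within tanks. The fit was run on simulated data, made by shuffling within-stage residuals over the 40 arrays without regard to tank or day. The check required only that the largest changes added be recovered, so it does not vouch for 1.5-fold changes. Gene lists planned for named probes could not be used. Examples were chosen by a rule on bright probes stated beside them; C004R149 was chosen after its values were seen. Replicate numbers do not pair fish. The number of arrays limits precision. Alternatives covered background, normalization, the value table, dim probes, slide, position, tank, weights, samples and single arrays.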

Additional observations from a re-analysis of the deposited data

Results flagged for a closer look

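A search of 56 sets of values (8 array measures on 4 days, and the 4 example probes on 6 days) for a fish far from the others of its day found 10, where chance gives about 2.8. Several come from the same arrays. On the first component, the score of replicate 7 of day 1 was 93.3, against 23.2 in the next fish. This array also lay at a distance of 118 from the early mean, with the next at 79.8. The score of replicate 10 of day 2 was 116, against 22.7 in the next fish, and it lay at a distance of 139, with the next at 83.9. Replicate 4 of day 7 had the lowest median Cy5 signal of its day, 55.5 against 71 in the next, and 48.0% of probes with a Cy5 signal below 50, against 44.2% in the next. The same array had a log2 ratio of -0.64 at probe C050R056, against -0.17 in the next; without it the late minus early difference of that probe was 0.29. At C112R128, replicate 1 of day 5 was at -0.21, against 0.09 in the next fish. At C013R124, replicate 9 of day 0 was at 0.88, against 0.13. At C097R118, replicate 5 of day 3 was at -1.51, against -0.54. The search was for single fish, and the pair of high first component scores on day 7 was outside its reach.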

How the results depend on the processing

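For late against early, limma or the test named called 0 probes under each of 68 settings run (smallest adjusted p 0.0735, tank 2 alone). Counts at an unadjusted p under 0.05 stayed within 1.5 times of 1345, with 3374 for day 5 against days 1 and 2 and 288 with bright probes alone, where fewer were tested, as exceptions. Leaving out 1 array gave 1215 (replicate 10 of day 5) to 1785 (replicate 10 of day 2), and 14240 to 14805 bright probes bounded within 1.5-fold. Other settings moved the bounded number further. It was 13611 (84.2%) with slide as a fixed block and 15669 (96.9%) with the first component as a covariate. With fewer fish it was 11476 (71.0%) in tank 1 alone and 12171 (75.3%) for day 5 against days 1 and 2. With the replicate block 0 probes were called and 1360 had an unadjusted p under 0.05; same-numbered fish deviated together no more (mean r 0.01, 57 pairs) than others (0.00). The 4 example probes kept their sign in every setting that tested them, their choice fixing it in single tanks and days. The other settings reused the arrays that chose the probes, so the kept sign is no separate support. Of 43627 probes, day 7 against day 5 gave 0 with median centring, the authors' table or 59 arrays. It gave 616 with array weights, 3223 without the 4 arrays apart and 5 of 16165 with bright probes alone. With single arrays left out it gave 0 to 16. The count was 0 without replicate 3, 7 or 8 of day 5 or 2 or 9 of day 7. It was 2 without replicate 1 and 16 without replicate 2 of day 5. For this contrast, 59 arrays and left-out arrays were added after seeing the data. The tank test and day 2 against day 1 gave 0 throughout. Uncalled values changed sign: the correlation between tanks (-0.02, -0.02 and -0.04, in the report); the second component 0.26 (bright probes). The third was 6.34 (no offset) and 4.93 (authors' table), but these scores correlated at only 0.43 and 0.48 with the third component in the report, so that sign carries no meaning. The median Cy3 signal (late minus early) differed by 3.8 in tank 1 and -10.7 in tank 2 (permutation p = 0.0438, adjusted p = 0.175), and the share of probes with Cy3 below 50 by -1.54 and 4.71 percentage points (permutation p = 0.0182 in tank 2, adjusted p = 0.146). The causes were not tested. The offset limits what dim probes can show.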
